A study of Danio rerio with 18 samples.

Results

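Lysosomes and related acidic compartments depend on the genes described here, which build the vacuolar proton pump (V-ATPase) and the membrane proteins around it. They were taken from the table of expression values as every gene whose symbol begins with atp6v, atp6ap, lamp and a digit, mcoln, spns and a digit, clcn and a digit, lamtor, tmem175, ostm1, npc1 or npc2, ignoring case. This gave 60 of 25432 genes. Of these, 40 reached an FPKM (fragments scaled by gene model length and by mapped fragments) of at least 1 in at least 4 of 18 libraries and were tested, among 10547 tested genes in all. The choice by symbol also takes in genes whose products are not lysosomal membrane proteins, among them the plasma membrane chloride channel genes clcn1 and clcn2 and npc2, which encodes a soluble protein of the lysosome lumen.

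The study compared zebrafish (Danio rerio) homozygous for a sinhcaf mutation, labelled sinhcaf-/-, with wild-type fish at 2 stages of ovarian material. The sinhcaf product belongs to the SIN3 histone deacetylase co-repressor complex. There were 5 mutant and 5 wild-type libraries of mature eggs, and 4 mutant and 4 wild-type libraries of FG follicles, a stage name that the labels do not spell out. A library was made from material that was pooled within a single female, so n counts fish. The allele, the age of the fish and any sibship between mutant and wild-type fish are not given in the sources used here.

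In the V-ATPase, the peripheral V1 sector hydrolyses ATP and turns a rotor, and the membrane-bound V0 sector uses that rotation to carry protons into the compartment. The acid drives hydrolases and exchangers, and the pump with the Ragulator complex is also the platform on which mTORC1 senses amino acids. In fish oocytes the pump is known for acidifying yolk bodies, where stored yolk proteins are cut during maturation.

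Summed FPKM ran from 376795 to 464199 in mutant eggs, from 375178 to 404150 in wild-type eggs, from 287120 to 305601 in mutant FG follicles and from 309889 to 340960 in wild-type FG follicles. The table holds no read counts, so the depth is unknown. The mRNA of sinhcaf itself stood at 0.184 to 0.351 FPKM in mutant eggs, all below the 0.361 to 1.59 FPKM of wild-type eggs, and at 0.359 to 1.04 FPKM in mutant FG follicles, which overlapped the 0.615 to 3.05 FPKM of wild-type FG follicles. Genes of the mitochondrial genome made up 37.1 to 51.0% of summed FPKM in mutant eggs and 33.1 to 37.9% in wild-type eggs, and 7.64 to 13.8% in mutant FG follicles and 14.0 to 17.7% in wild-type FG follicles. In both genotypes, egg libraries 4 and 5 listed more genes at an FPKM of at least 1 than egg libraries 1 to 3, so the genotype calls in eggs are also given for each of those sets. The 60 genes together held 0.437 to 0.612% of summed FPKM in mutant eggs, 0.537 to 0.598% in wild-type eggs, 0.553 to 0.636% in mutant FG follicles and 0.547 to 0.648% in wild-type FG follicles.

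Levels spanned a wide range within the set. The highest was npc2, which encodes the soluble cholesterol-binding protein of the lysosome lumen, at 1313 ± 162 FPKM in mutant eggs and 1307 ± 128 FPKM in wild-type eggs (SD, n = 5 each). In FG follicles lamp2, a heavily glycosylated protein that lines the lysosome membrane, was the highest, at 661 ± 91.4 FPKM in mutant and 713 ± 67.3 FPKM in wild-type libraries (SD, n = 4 each). Next over all egg libraries together was the Ragulator gene lamtor4, at 242 ± 21.4 FPKM in mutants against 258 ± 14.2 FPKM in wild type, while in mutant eggs alone lamp2 stood level with it at 243 ± 40.9 FPKM. The 20 genes below the filter were atp6ap1a, atp6ap1la, atp6ap1lb, atp6v0a1b, atp6v0a2a, atp6v0d1, atp6v1aa, atp6v1b2, atp6v1c2, clcn1a, clcn1b, clcn2a, LAMP5, mcoln1b, mcoln3a, NPC1L1, a second NPC2 copy, spns2, spns3 and tmem175. Their highest value in any library was the 1.74 FPKM of atp6ap1a, and 16 of them stayed under 1 FPKM in every library. Of the 40 tested genes, 25 stood at 1 FPKM or more in all 18 libraries, and the other 15 passed the filter through some libraries only, so counts over the 40 are a description.

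Mutants were compared with wild type to ask which of these transcripts depend on sinhcaf genotype. In eggs 9 of the 40 genes (22.5%) were called at an adjusted p under 0.05, against 15.1% of all tested genes. The calls were 5 higher (clcn2b, clcn5a, lamp2, lamtor1, ostm1) and 4 lower (atp6v1d, atp6v1e1b, clcn6, spns1), where 7.35% of all tested genes were higher and 7.71% lower. In FG follicles the count was also 9 (22.5%), against 23.5% of all tested genes. There, 3 were higher (atp6v0a1a, atp6v1ab, atp6v1c1b) and 6 lower (atp6v0e1, atp6v1d, atp6v1e1b, clcn6, npc2, spns1), where 10.1% of all tested genes were higher and 13.4% lower. The median log2 difference of the 40 was 0.07 in eggs and -0.02 in FG follicles, beside 0.04 in eggs and -0.05 in FG follicles over all tested genes. These counts lie near the background in FG follicles and a little above it in eggs, and 26 of the 40 genes were called at neither stage. With other scalings the split of calls in eggs was 3 higher and 6 lower (median-of-ratios), 2 and 5 (TPM, each library rescaled to the same sum) and 6 and 4 (TPM without mitochondrial genes). In FG follicles it was 3 and 4, 4 and 3, and 4 and 4 under the same scalings.

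**Figure D1:**
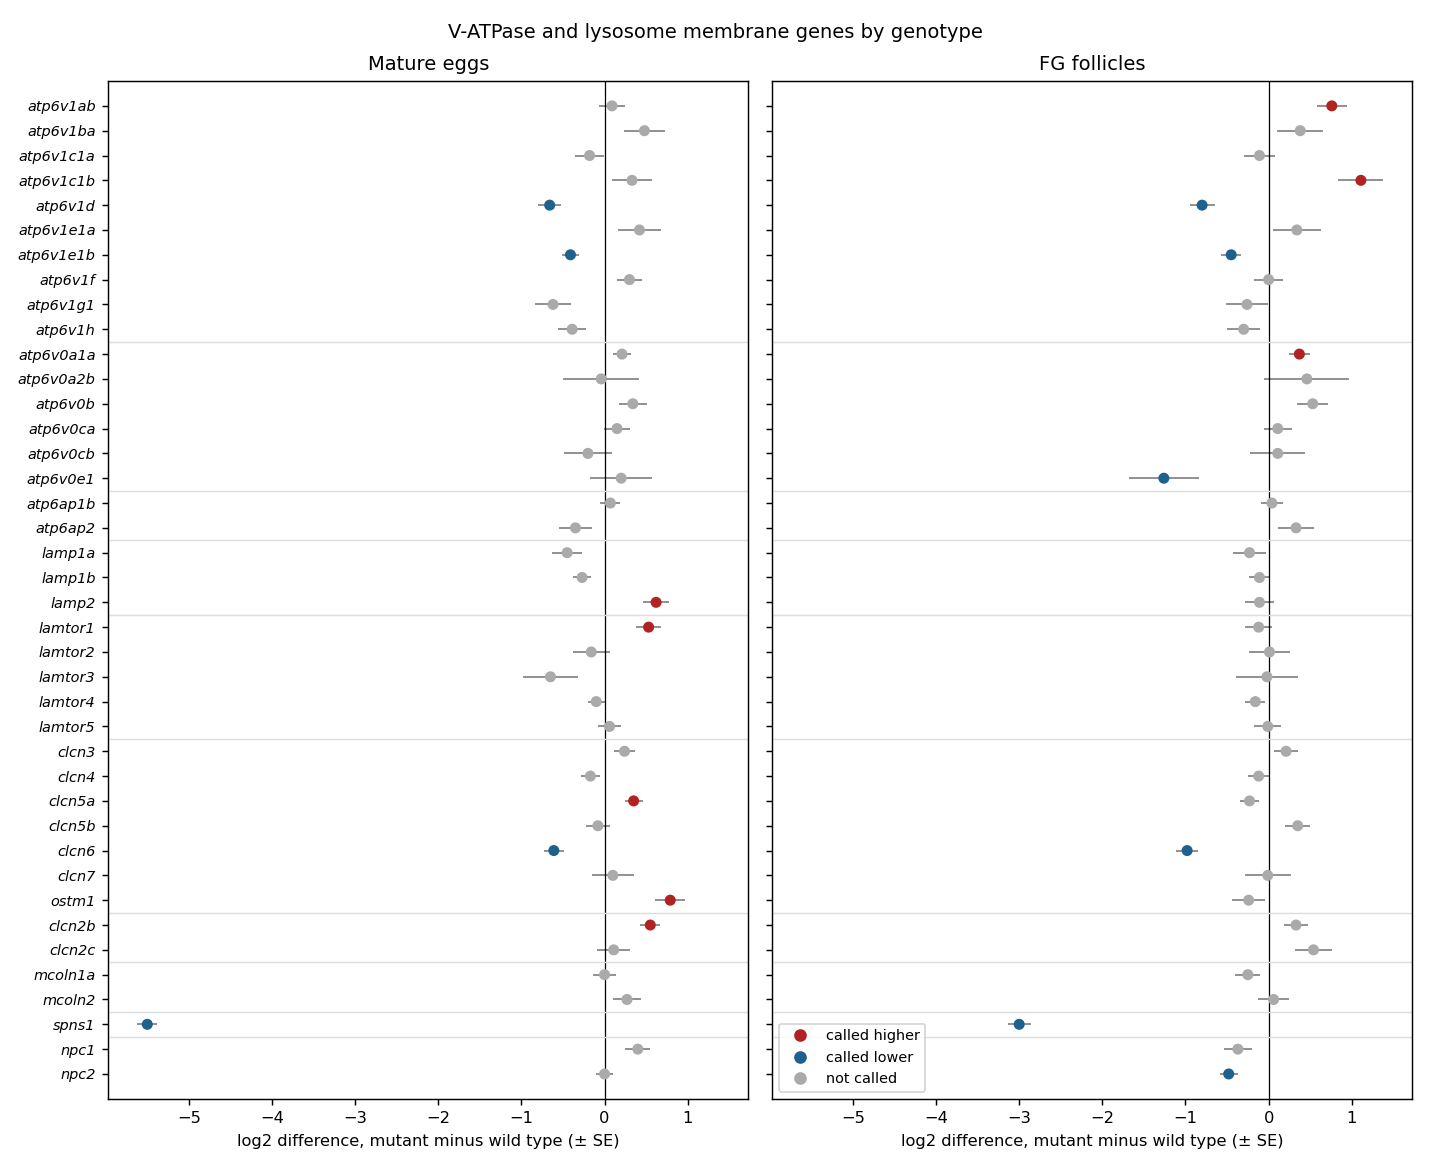
Log2 difference, mutant minus wild type, of the 40 tested genes in mature eggs (left) and FG follicles (right), on the log2(FPKM + 1) scale, with bars of 1 standard error and colours for the call at an adjusted p under 0.05. Horizontal lines separate roles, and spns1 lies far to the left of the rest at both stages, at -5.50 in eggs and -3.00 in FG follicles.

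The spinster transporter gene spns1 changed most. Its product is a lysosomal transporter of lysophospholipids in mammals, and in zebrafish loss of spns1 in the mutant called not really started is known for an opaque yolk. It stood at 0.689, 1.27, 0.833, 0.796 and 0.894 FPKM in mutant egg libraries 1 to 5, against 85.7, 77.9, 79.0, 93.3 and 86.8 FPKM in wild-type egg libraries 1 to 5. In FG follicles it stood at 0.0368, 0, 0.0174 and 0.0170 FPKM in mutant libraries 1 to 4, against 8.61, 7.48, 5.04 and 7.81 FPKM in wild-type libraries 1 to 4. Every mutant library lay far below every wild-type library of its stage, and 1 mutant FG follicle library was listed at 0. The gene passed the filter through wild-type libraries, as only 1 mutant library, egg library 2, reached 1 FPKM. The fall of spns1 is therefore a description. The log2 difference was -5.50 ± 0.12 in eggs (SE, limma, adjusted p = 6.61e-16) and -3.00 ± 0.14 in FG follicles (adjusted p = 1.02e-11), on the log2(FPKM + 1) scale, which draws low values together. It was -5.42 in egg libraries 1 to 3 alone and -5.62 in egg libraries 4 and 5 alone, and was called in each. With a pseudocount of 0.1 the FG follicle value was -5.94, and in TPM without mitochondrial genes it was -4.65. The related genes spns2 and spns3 did not pass the filter.

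Genes beside spns1 in the zebrafish annotation were looked at whatever their values. The annotation is of another assembly (GRCz12tu) than the one named for these data (GRCz11), so it was used for gene order alone. On 1 side of spns1, the next protein-coding genes were nfatc2ip (place 1), sgf29 (place 2), doc2a (place 3) and nupr1b (place 4). The first of them, nfatc2ip, averaged 0.179 FPKM in mutant eggs and 4.28 FPKM in wild-type eggs, and 0.343 FPKM in mutant FG follicles and 12 FPKM in wild-type FG follicles. It was lower in mutants at both stages (log2 difference -2.13, adjusted p = 1.87e-08 in eggs and -3.26, adjusted p = 1.55e-10 in FG follicles, limma). No mutant library was above 0.531 FPKM, so nfatc2ip passed the filter only through wild-type libraries. The second, sgf29, a chromatin reader of the SAGA complex, averaged 0.355 FPKM in mutant FG follicles and 5.32 FPKM in wild-type FG follicles, through which alone it passed the filter, and in eggs, at 0.0278 FPKM in mutant and 0.318 FPKM in wild-type libraries, missed the threshold (adjusted p = 0.059). The stress-response gene nupr1b was listed at 0 in all 9 mutant libraries. In FG follicles of wild type it stood at 22.5, 29.4, 14.8 and 31.3 FPKM, and in wild-type eggs between 0.227 and 0.530 FPKM. It too passed the filter only through the 4 wild-type FG follicle libraries. The FG follicle values of sgf29 and nupr1b, and the values of nfatc2ip at both stages, are therefore a description. The gene doc2a did not pass the filter.

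On the other side of spns1 the pattern differed. The tested gene there, atxn2l at place -2, averaged 0.689 FPKM in mutant eggs and 0.586 FPKM in wild-type eggs (log2 difference 0.09, adjusted p = 0.762). In FG follicles atxn2l averaged 3.52 FPKM in mutants against 4.72 FPKM in wild type (log2 difference -0.36, adjusted p = 0.118). The gene lat at place -1 had no match in the table, and sh2b1, pitpnbl and cabp5b beyond atxn2l were below the filter.

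**Figure D2:**
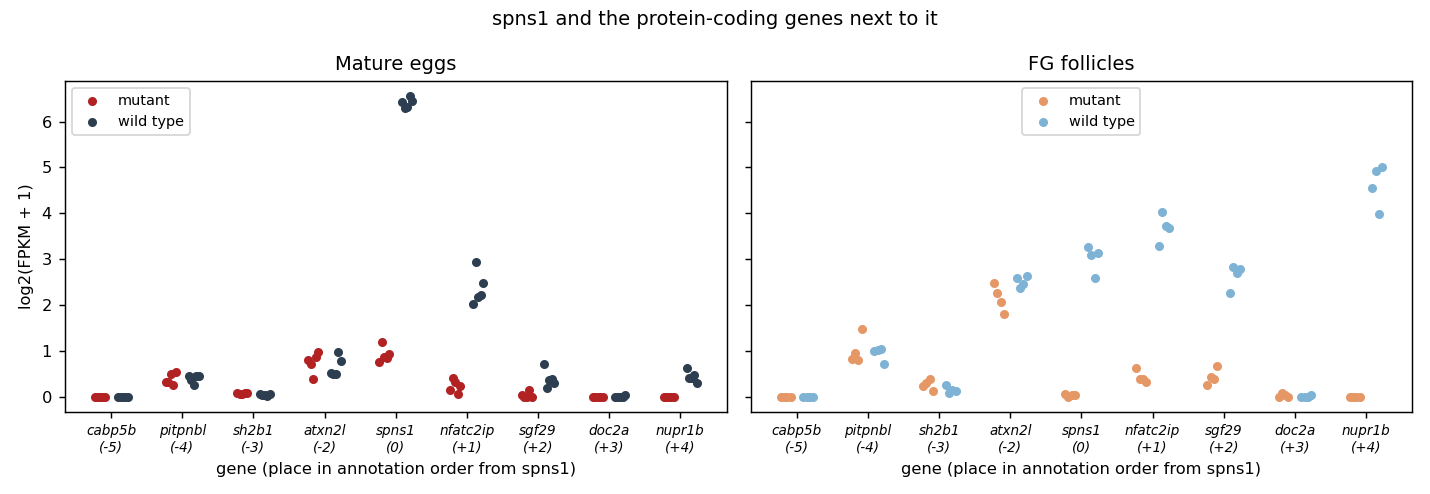
log2(FPKM + 1) of spns1 and the protein-coding genes next to it in annotation order, with 1 point per library, in mature eggs (left, n = 5 each) and FG follicles (right, n = 4 each), mutant left of wild type. Mutant points of spns1 and nfatc2ip lie below all wild-type points at both stages, nupr1b is at 0 in every mutant library, and those of atxn2l overlap wild type.

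Besides spns1, 3 genes were lower in mutants at both stages. The 4 together are 10% of the 40, where 6.64% of all tested genes were called at both stages in any direction. The egg and FG follicle comparisons use separate libraries, but whether any female gave both is not stated in the labels. Each gene's estimate of spread is also shared over all groups.

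The clearest of the 3 was clcn6, a chloride/proton exchanger of late endosomes. It stood at 13, 17.6, 20.0, 13.8 and 14.3 FPKM in mutant eggs, against 27.1, 25.5, 23.3, 22.5 and 23.3 FPKM in wild-type eggs. In FG follicles clcn6 stood at 5.27, 4.99, 4.59 and 3.85 FPKM in mutants, against 10.1, 9.10, 10.7 and 10.7 FPKM in wild type. The genotypes did not overlap at either stage. The log2 difference was -0.61 ± 0.12 in eggs (limma, adjusted p = 0.00154) and -0.98 ± 0.13 in FG follicles (adjusted p = 3.41e-05).

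The other pair encode parts of the V1 sector. The gene atp6v1d encodes subunit D, the central shaft of the rotor. It stood at 1.89, 1.88, 3.41, 2.96 and 2.59 FPKM in mutant eggs, against 5.27, 3.70, 4.27, 4.50 and 4.97 FPKM in wild-type eggs. In FG follicles atp6v1d stood at 10.8, 8.56, 9.86 and 12.2 FPKM in mutants, against 19.9, 16.7, 20.0 and 18.3 FPKM in wild type. All mutant libraries were below all wild-type libraries of their stage (log2 difference -0.66 ± 0.14, adjusted p = 0.00256 in eggs and -0.80 ± 0.15, adjusted p = 0.000894 in FG follicles, limma). The gene atp6v1e1b is 1 of 2 genes for subunit E, part of the stalks that hold the V1 head still. It stood at 0.658, 0.563, 0.676, 0.643 and 0.916 FPKM in mutant eggs, against 0.994, 1.68, 1.28, 1.16 and 1.16 FPKM in wild-type eggs. In FG follicles atp6v1e1b stood at 24.0, 21.1, 22.3 and 23.9 FPKM in mutants, against 31.3, 29.8, 34.2 and 30.9 FPKM in wild type. The genotypes did not overlap at either stage, but egg values were near 1 FPKM. The log2 difference was -0.41 ± 0.10 in eggs (adjusted p = 0.0106, with -0.77 at a pseudocount of 0.1 and -0.66 in TPM) and -0.45 ± 0.12 in FG follicles (adjusted p = 0.00886), where the call was lost with a pseudocount of 0.1 (adjusted p = 0.0718), in TPM (0.199) and in TPM without mitochondrial genes (0.101). The other copy, atp6v1e1a, averaged 3.73 ± 0.907 FPKM in mutant eggs and 2.75 ± 1.57 FPKM in wild-type eggs, and 5.52 ± 1.62 FPKM in mutant FG follicles and 4.20 ± 1.71 FPKM in wild-type FG follicles. It was called at neither stage.

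**Figure D3:**
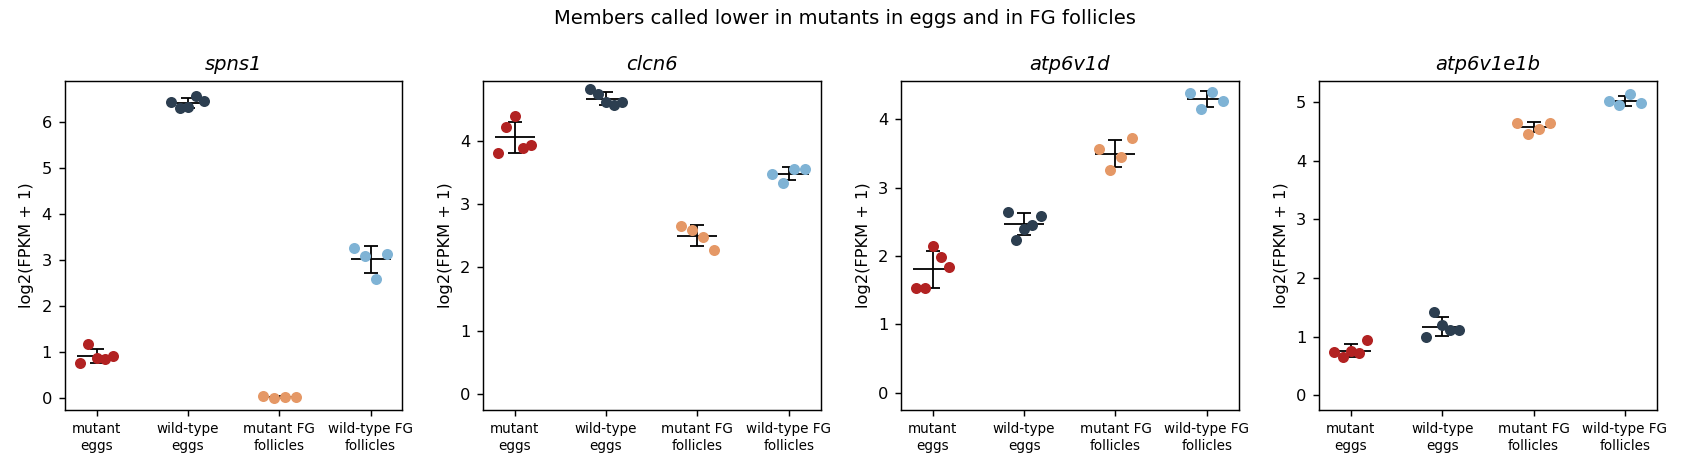
log2(FPKM + 1) of the 4 genes called lower in mutants at both stages, spns1, clcn6, atp6v1d and atp6v1e1b, with 1 point per library, a line for the mean and bars of 1 SD (n = 5 per egg group, n = 4 per FG follicle group). In every panel the mutant points lie below the wild-type points of the same stage.

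Of the 10 tested V1 genes, 2 fell and none rose in mutant eggs (20%, against 15.1% of all tested genes), and 2 rose and 2 fell in mutant FG follicles (40%, against 23.5%). The 2 that rose in FG follicles were low in most libraries. The catalytic subunit A gene atp6v1ab, the site of ATP hydrolysis, stood at 1.84, 2.27, 1.76 and 1.83 FPKM in mutant FG follicles, against 0.267, 1.28, 1.40 and 0.257 FPKM in wild-type FG follicles. All mutant libraries were above all wild-type libraries, and the wild-type libraries themselves fell into a higher and a lower pair (log2 difference 0.76 ± 0.18, adjusted p = 0.00401, with 1.48 at a pseudocount of 0.1 and 1.31 in TPM). The stalk subunit C gene atp6v1c1b stood at 5.49, 2.71, 4.37 and 2.76 FPKM in mutant FG follicles, against 1.67, 0.629, 2.89 and 0.334 FPKM in wild-type FG follicles. Wild-type library 3 lay above 2 of the mutant libraries (log2 difference 1.11 ± 0.27, adjusted p = 0.00531, with 1.73 at a pseudocount of 0.1). In eggs both genes were under 1 FPKM in every library. Each reached 1 FPKM in 6 of 18 libraries, all 4 of mutant FG follicles and the rest of wild-type FG follicles. Without the mutant FG follicle libraries neither would have passed the filter, so both rises are a description. The closest V1 gene that was not called was atp6v1g1, a stalk subunit, in eggs (1.97 ± 1.03 FPKM in mutants against 3.44 ± 0.887 FPKM in wild type, log2 difference -0.62 ± 0.22, adjusted p = 0.0643, and 0.0189 to 0.0434 without mutant library 3 or 5 or wild-type library 4). With median-of-ratios scaling atp6v1g1 was called lower in eggs (log2 difference -0.80, limma, adjusted p = 0.0257). The gene of the regulatory subunit H, atp6v1h, averaged 14.8 ± 3.26 FPKM in mutant eggs and 20.0 ± 5.62 FPKM in wild-type eggs, and was called with the replicate number as a block in egg libraries alone (log2 difference -0.39, adjusted p = 0.0396, against 0.147 without the block).

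Among the 6 tested V0 genes, none was called in mutant eggs, and none passed an unadjusted p under 0.05 there (limma). In FG follicles 1 rose and 1 fell. The rise was in atp6v0a1a, which encodes the large subunit a that forms the proton path with the c ring. It stood at 19.1, 17.9, 17.4 and 16.1 FPKM in mutant FG follicles, against 14.6, 14.0, 13.4 and 11.9 FPKM in wild type. The genotypes did not overlap, and the difference was small (log2 difference 0.37 ± 0.13, adjusted p = 0.0423). The fall was in atp6v0e1, the small membrane subunit e, which stood at 31.5, 33.6, 36.9 and 34.1 FPKM in mutant FG follicles, against 75.9, 87.8, 61.8 and 112 FPKM in wild type. All mutant values were below the lowest wild-type value (log2 difference -1.26 ± 0.42, adjusted p = 0.0361). Its standard error rests on the spread over all 4 groups, and egg libraries ranged from 9.32 to 39.1 FPKM in mutants and from 8.20 to 47.5 FPKM in wild type. The call of atp6v0e1 was lost in 7 of 8 fits that left out 1 FG follicle library (adjusted p from 0.0536 to 0.0979), all but the fit without wild-type library 3, and under 5 other settings, the 3 scalings among them (0.0508 to 0.0752). That of atp6v0a1a was lost in 6 of 8 (0.0667 to 0.122), all but those without mutant library 4 or wild-type library 1, and with a pseudocount of 0.1 (0.0929). The proteolipid ring gene atp6v0b, at 75.1, 95.8, 78.4 and 109 FPKM in mutant and 65.7, 54.6, 78.8 and 48.7 FPKM in wild-type FG follicles, overlapped and missed the threshold (log2 difference 0.53 ± 0.19, adjusted p = 0.0547, and 0.0299 without wild-type library 3). With FG follicles fitted alone atp6v0b was called higher. Of the accessory genes, atp6ap1b and atp6ap2, which take part in assembly of the pump, neither was called at either stage and neither passed an unadjusted p under 0.05.

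In the chloride exchanger group, which holds clcn3 to clcn7 and ostm1, eggs had 2 higher genes beside the fall of clcn6. The product of ostm1 is the partner subunit that stabilises the lysosomal exchanger ClC-7. The gene ostm1 stood at 3.89, 4.36, 3.90, 3.95 and 5.21 FPKM in mutant eggs, against 2.25, 1.25, 2.57, 1.67 and 2.61 FPKM in wild-type eggs. Every mutant egg library was above every wild-type one (log2 difference 0.79 ± 0.18, adjusted p = 0.00413). In FG follicles ostm1 overlapped, at 1.1, 2.42, 1.1 and 2.52 FPKM in mutants and 2.74, 1.96, 1.65 and 2.49 FPKM in wild type, and was not called. Its partner clcn7 averaged 2.29 ± 1.37 FPKM in mutant eggs and 2 ± 1.07 FPKM in wild-type eggs, and 13.9 ± 0.991 FPKM in mutant FG follicles and 14.1 ± 2.78 FPKM in wild-type FG follicles, with no call at either stage. The endosomal exchanger gene clcn5a stood at 1.84, 2.12, 2.05, 2.27 and 2.89 FPKM in mutant eggs, against 1.28, 1.32, 1.45, 1.84 and 1.80 FPKM in wild-type eggs. The lowest mutant library equalled the highest wild-type library at 3 digits (log2 difference 0.35 ± 0.11, adjusted p = 0.0379), and with the replicate number as a block in egg libraries alone the adjusted p was 0.0728. The call of clcn5a was also lost in TPM (0.148), with eggs fitted alone (0.142), and when mutant library 2, 4 or 5 or wild-type library 1, 2 or 3 was left out (0.0565 to 0.1). The plasma membrane channel gene clcn2b stood at 20.1, 18.9, 21.8, 16.2 and 18.4 FPKM in mutant eggs, against 14.6, 12.4, 14.1, 10.7 and 12 FPKM in wild-type eggs, without overlap (log2 difference 0.55 ± 0.12, adjusted p = 0.00407, and 0.0989 with median-of-ratios scaling). It missed the threshold in FG follicles, at 4.57 ± 0.185 FPKM in mutants against 3.48 ± 0.786 FPKM in wild type (log2 difference 0.33 ± 0.14, adjusted p = 0.0881, 0.0252 without wild-type library 3, and 0.0311 in TPM with a value of 0.52). In TPM without mitochondrial genes clcn2b was also called higher there.

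Of the LAMP and Ragulator genes, lamp2 and lamtor1 were called, in eggs, and no gene of either group in FG follicles, where none passed an unadjusted p under 0.05 (limma). The membrane glycoprotein gene lamp2 stood at 252, 202, 201, 263 and 295 FPKM in mutant eggs, against 130, 149, 114, 231 and 182 FPKM in wild-type eggs. Wild-type library 4 lay above mutant libraries 2 and 3 (log2 difference 0.62 ± 0.16, adjusted p = 0.014, but 0.0524 in TPM and 0.0506 with eggs fitted alone). The other tested glycoprotein genes of eggs lay the other way without a call, lamp1b at 79.6 ± 5.90 FPKM in mutants against 97.2 ± 15.8 FPKM in wild type and lamp1a at 4.90 ± 1.56 FPKM in mutants against 6.96 ± 1.5 FPKM in wild type. The product of lamtor1 anchors the Ragulator to the membrane through lipid tails. The gene lamtor1 stood at 36.3, 29.9, 30.7, 25.9 and 42.9 FPKM in mutant eggs, against 22.4, 17.8, 18.5, 28.2 and 26.7 FPKM in wild-type eggs. Mutant library 4 lay below wild-type libraries 4 and 5 (log2 difference 0.53 ± 0.15, adjusted p = 0.0185), and the call was lost without mutant library 5 or wild-type library 2 or 3 (0.0527 to 0.0557), with eggs fitted alone (0.0627), in TPM (0.0892) and with median-of-ratios scaling (0.0503). In egg libraries 4 and 5 alone the lamtor1 value was 0.27. The other Ragulator genes, lamtor2 to lamtor5, were not called at either stage. With the replicate number as a block in egg libraries alone, lamtor3 was called lower, at 21.0 ± 10.9 FPKM in mutants against 33.2 ± 15.8 FPKM in wild type (log2 difference -0.65, adjusted p = 0.0125, and 0.205 without the block). The sum over the 5 Ragulator genes was 314 to 383 FPKM in mutant eggs and 329 to 403 FPKM in wild-type eggs, and 246 to 266 FPKM in mutant FG follicles and 244 to 299 FPKM in wild-type FG follicles.

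The products of npc1 and npc2 pass cholesterol out of the lysosome, npc2 from the lumen and npc1 across the membrane. In FG follicles npc2 stood at 224, 237, 211 and 224 FPKM in mutants, against 375, 292, 291 and 297 FPKM in wild type. All mutant libraries were lower (log2 difference -0.48 ± 0.11, adjusted p = 0.00432), and the call was lost with median-of-ratios scaling (adjusted p = 0.123) and in TPM (0.0947). In eggs npc2 was not called. The membrane protein gene npc1 stood at 36.0, 36.2, 40.5 and 40.3 FPKM in mutant FG follicles, against 47.6, 47.8, 58.2 and 46.5 FPKM in wild type. These did not overlap, yet the difference missed the threshold (log2 difference -0.37, adjusted p = 0.125). In eggs npc1 stood at 19.9, 29.3, 27.8, 32.7 and 26.1 FPKM in mutants, against 14.0, 19.1, 18.3, 26 and 25.2 FPKM in wild type. These overlapped (log2 difference 0.40 ± 0.15, adjusted p = 0.0833), and with the replicate number as a block npc1 passed narrowly (adjusted p = 0.0498), as it did without mutant library 1 or wild-type library 4 or 5 (0.0259 to 0.0455). In TPM without mitochondrial genes npc1 was also called higher in mutant eggs. The cation channel genes mcoln1a and mcoln2, whose products release calcium from endosomes and lysosomes, were not called in mutants at either stage and passed no unadjusted p under 0.05.

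Mutant and wild-type libraries did not overlap for 6 of the 40 genes in eggs (2 higher and 4 lower), where 11.1% of all tested genes did not overlap. They did not overlap for 10 of the 40 in FG follicles (2 higher and 8 lower), where the share was 29.0%. With egg libraries 1 to 3 alone 3 genes were called (spns1, lamp2 and lamtor1), and with egg libraries 4 and 5 alone 1 gene (spns1) was called. The egg calls of atp6v1d, atp6v1e1b, clcn6, ostm1, clcn5a and clcn2b were lost in both sets. Fewer fish enter those fits, and all 9 genes called in eggs kept their direction in both sets. Marker genes of other cells were examined beside these calls. The granulosa cell markers summed to 36.7 to 134 FPKM in mutant eggs and 27.5 to 36.5 FPKM in wild-type eggs, and to 70.3 to 142 FPKM in mutant FG follicles and 44.4 to 87.4 FPKM in wild-type FG follicles. Of the 11 such genes matched, 5 were tested, with cyp11a1 called higher in mutant eggs, hsd17b1 called higher in mutant FG follicles, and foxl2a listed at 0 in all egg libraries. The egg sums were mostly cyp11a1, which averaged 85.8 FPKM in mutant eggs and 30.8 FPKM in wild-type eggs. No other matched granulosa marker averaged above 0.103 FPKM in eggs of either genotype. Leukocyte markers summed to at most 0.266 FPKM in mutant eggs and 0.882 FPKM in wild-type eggs, and to at most 2.47 FPKM in mutant FG follicles and 1.15 FPKM in wild-type FG follicles, and none of the 8 reached the filter. Theca and stroma markers summed to 62.9 to 86.9 FPKM in mutant eggs and 62.7 to 99.6 FPKM in wild-type eggs, and to 56.0 to 71.9 FPKM in mutant FG follicles and 63.1 to 70.8 FPKM in wild-type FG follicles. The egg sums were mostly cyp17a1, which averaged 69.9 FPKM in mutant eggs and 75.8 FPKM in wild-type eggs. Of this list, fn1a was called lower in mutants at both stages. It averaged 0.636 FPKM in mutant eggs and 2.26 FPKM in wild-type eggs. As fn1a passed the filter only through the 5 wild-type egg libraries, its fall is a description. Oocyte markers summed to 1549 to 1934 FPKM in mutant eggs and 1650 to 1915 FPKM in wild-type eggs, and to 2032 to 2307 FPKM in mutant FG follicles and 1610 to 2059 FPKM in wild-type FG follicles. Of these, zp3b (log2 difference 0.87 in eggs and 1.27 in FG follicles) and zp2.1 (0.69 in eggs and 1.09 in FG follicles) were called higher in mutants at both stages, and in FG follicles gdf9 was called higher (1.06) and dazl lower (-0.73). Endothelial markers summed to 5.86 to 9.02 FPKM in mutant eggs and 4.37 to 7.26 FPKM in wild-type eggs, and to 3.31 to 4.66 FPKM in mutant FG follicles and 2.74 to 3.71 FPKM in wild-type FG follicles, and cldn5b was called higher in mutant eggs (0.53). The endothelial sums of eggs were mostly cldn5b, which averaged 7.03 FPKM in mutant eggs and 4.61 FPKM in wild-type eggs. The rest of that list was below the filter. Of these, kdrl went the other way, at 0.145 to 0.185 FPKM in mutant eggs and 0.308 to 0.675 FPKM in wild-type eggs. In eggs cdh5, pecam1 and fli1a overlapped between genotypes. Erythrocyte markers stayed at or under 0.825 FPKM in eggs and 7.91 FPKM in FG follicles. The part of other cell types in these calls was not tested.

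Whether the genotype difference itself differed between stages was tested as the egg difference minus the FG follicle difference. This was called for 4 of the 40 genes (10%), against 6.95% of all tested genes, with 3 positive (4.23% of all tested genes) and 1 negative (2.72%). For spns1 the log2 value was -2.50 ± 0.19 (limma, adjusted p = 6.57e-08), with a larger wild-type level in eggs (84.5 ± 6.26 FPKM) than in FG follicles (7.24 ± 1.54 FPKM). With a pseudocount of 0.1 in place of 1 it was -0.49 (adjusted p = 0.356), where low values are drawn together less, and it was not called. In TPM without mitochondrial genes it was -1.50 (adjusted p = 0.00114). As a ratio of mean FPKM, mutants stood at 0.0106 of wild type in eggs and at 0.00246 in FG follicles. On that measure the fall was larger in FG follicles, where mutant values were near 0. The gene passed the filter through wild-type libraries, so its call here is a description. The others were ostm1 at 1.03 ± 0.26 (adjusted p = 0.0223), clcn5a at 0.57 ± 0.16 (adjusted p = 0.0411) and npc1 at 0.78 ± 0.23 (adjusted p = 0.047), each with a positive difference in eggs and a negative one in FG follicles. None of these 3 was called in FG follicles on its own (limma, adjusted p = 0.42 for ostm1, 0.199 for clcn5a at -0.23, and 0.125 for npc1). In eggs npc1 was not called either (0.0833). Leaving out 1 library ended the call of npc1 in 15 of 18 fits (adjusted p from 0.0545 to 0.0963), of clcn5a in 12 of 18 (0.058 to 0.0828) and of ostm1 in 2 of 18 (0.0556 and 0.0565, without mutant FG follicle library 1 or 3). The count of 4 became 2 when library 2 or 5 of mutant eggs, 1, 2 or 3 of wild-type eggs, or 2 or 4 of mutant FG follicles was left out, and 1 when mutant FG follicle library 1 or 3 was. With median-of-ratios scaling and in TPM the call of spns1 alone remained (adjusted p of ostm1 0.0504 and 0.094, of clcn5a 0.0501 and 0.285, and of npc1 0.0636 and 0.273).

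Eggs were compared with FG follicles in each genotype to show how these transcripts differ between the 2 stages. In mutants 36 of the 40 genes (90%) were called, 11 higher and 25 lower in eggs, against 81.7% of all tested genes (23.4% higher and 58.3% lower). In wild type 35 (87.5%) were called, 10 higher and 25 lower, against 82.9% of all tested genes (22.1% higher and 60.8% lower). Both genotypes gave a higher call for 10 genes (25%, against 20.0% of all tested genes) and a lower call for 23 (57.5%, against 55.4%), so the counts lie near the background. The genes atp6v1e1a and lamp1a were called in neither genotype. The median gene of the whole table was itself lower in eggs, by log2 values of -0.79 in mutants and -0.85 in wild type, while the 40 genes had medians of -0.91 in mutants and -0.72 in wild type. After median-of-ratios scaling the calls were 16 higher and 17 lower in mutants and 15 and 16 in wild type. All the higher calls remained, as did 17 of 25 lower calls in mutants and 16 of 25 in wild type. In bulk material, fewer cells of a type and less RNA per cell cannot be told apart.

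The largest falls in eggs were in genes of the pump and in the channel gene mcoln2. The proteolipid gene atp6v0b averaged 2.57 ± 0.760 FPKM in mutant eggs and 89.6 ± 15.9 FPKM in mutant FG follicles, and 1.78 ± 0.377 FPKM in wild-type eggs and 61.9 ± 13.3 FPKM in wild-type FG follicles. Its log2 difference was -4.68 in mutants (limma, adjusted p = 5.71e-14) and -4.49 in wild type (adjusted p = 9.55e-14). The c ring gene atp6v0ca (-3.93 in mutants and -3.98 in wild type), the V1 genes atp6v1c1a (-3.83 and -3.77), atp6v1e1b (-3.82 and -3.86) and atp6v1f (-3.55 and -3.86) and the accessory gene atp6ap1b (-3.80 and -3.83) were lower in eggs by like amounts. Of these, atp6ap1b stood at no more than 0.58 FPKM in any egg library. The gene atp6v1f stood at no more than 1.76 FPKM in mutant eggs and 0.932 FPKM in wild-type eggs. Without the FG follicle libraries neither gene would have passed the filter, so both falls are a description. The pump genes atp6v1h, the regulatory subunit H, and atp6v0a2b, a subunit a, were higher in eggs. The gene atp6v1h averaged 14.8 ± 3.26 FPKM in mutant eggs and 8.84 ± 0.953 FPKM in mutant FG follicles, and 20.0 ± 5.62 FPKM in wild-type eggs and 11.1 ± 0.834 FPKM in wild-type FG follicles (log2 differences 0.66 in mutants and 0.75 in wild type). The gene atp6v0a2b averaged 21.6 ± 7.23 FPKM in mutant eggs and 8.59 ± 2.34 FPKM in mutant FG follicles, and varied more among wild-type fish, at 7.17 to 44.5 FPKM in eggs and 2.44 to 12.5 FPKM in FG follicles (log2 differences 1.19, adjusted p = 0.0305 in mutants and 1.69, adjusted p = 0.00353 in wild type). The call of atp6v0a2b in mutants was lost without egg library 3, 4 or 5 or FG follicle library 1, 3 or 4 of the mutants (adjusted p from 0.0505 to 0.0709), without a filter (0.0569) and in TPM (0.181).

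Other members went in both directions. The soluble cholesterol carrier gene npc2 was higher in eggs (log2 difference 2.54 in mutants and 2.06 in wild type), as were clcn2b (1.84 and 1.62), clcn6 (1.55 and 1.18) and lamtor4 (1.31 and 1.25). The membrane cholesterol transporter gene npc1 was lower in eggs (-0.50 in mutants and -1.27 in wild type), and with median-of-ratios scaling its value in mutants turned to 0.51. For spns1 the difference was 0.89 in mutants, where all values were near 0, and 3.39 in wild type. The mucolipin genes went in opposite directions. The gene mcoln1a, for the calcium channel TRPML1, averaged 11.1 ± 1.41 FPKM in mutant eggs and 1.39 ± 0.281 FPKM in mutant FG follicles, and 11.1 ± 2.36 FPKM in wild-type eggs and 1.84 ± 0.310 FPKM in wild-type FG follicles. The gene mcoln2 averaged 1.38 ± 0.443 FPKM in mutant eggs and 47.9 ± 5.40 FPKM in mutant FG follicles, and 0.985 ± 0.459 FPKM in wild-type eggs and 46.2 ± 6.81 FPKM in wild-type FG follicles. The log2 differences were 2.34 in mutants and 2.08 in wild type for mcoln1a, and -4.38 and -4.59 for mcoln2. The glycoprotein gene lamp2 was lower in eggs (-1.45 in mutants and -2.18 in wild type), while lamp1b was higher (0.56 and 0.72). Among genes called after median-of-ratios scaling, the signs that turned were those of clcn5a and lamtor5 beside npc1 in mutants, and of atp6v1g1, lamtor1, lamtor5 and ostm1 in wild type.

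**Figure D4:**
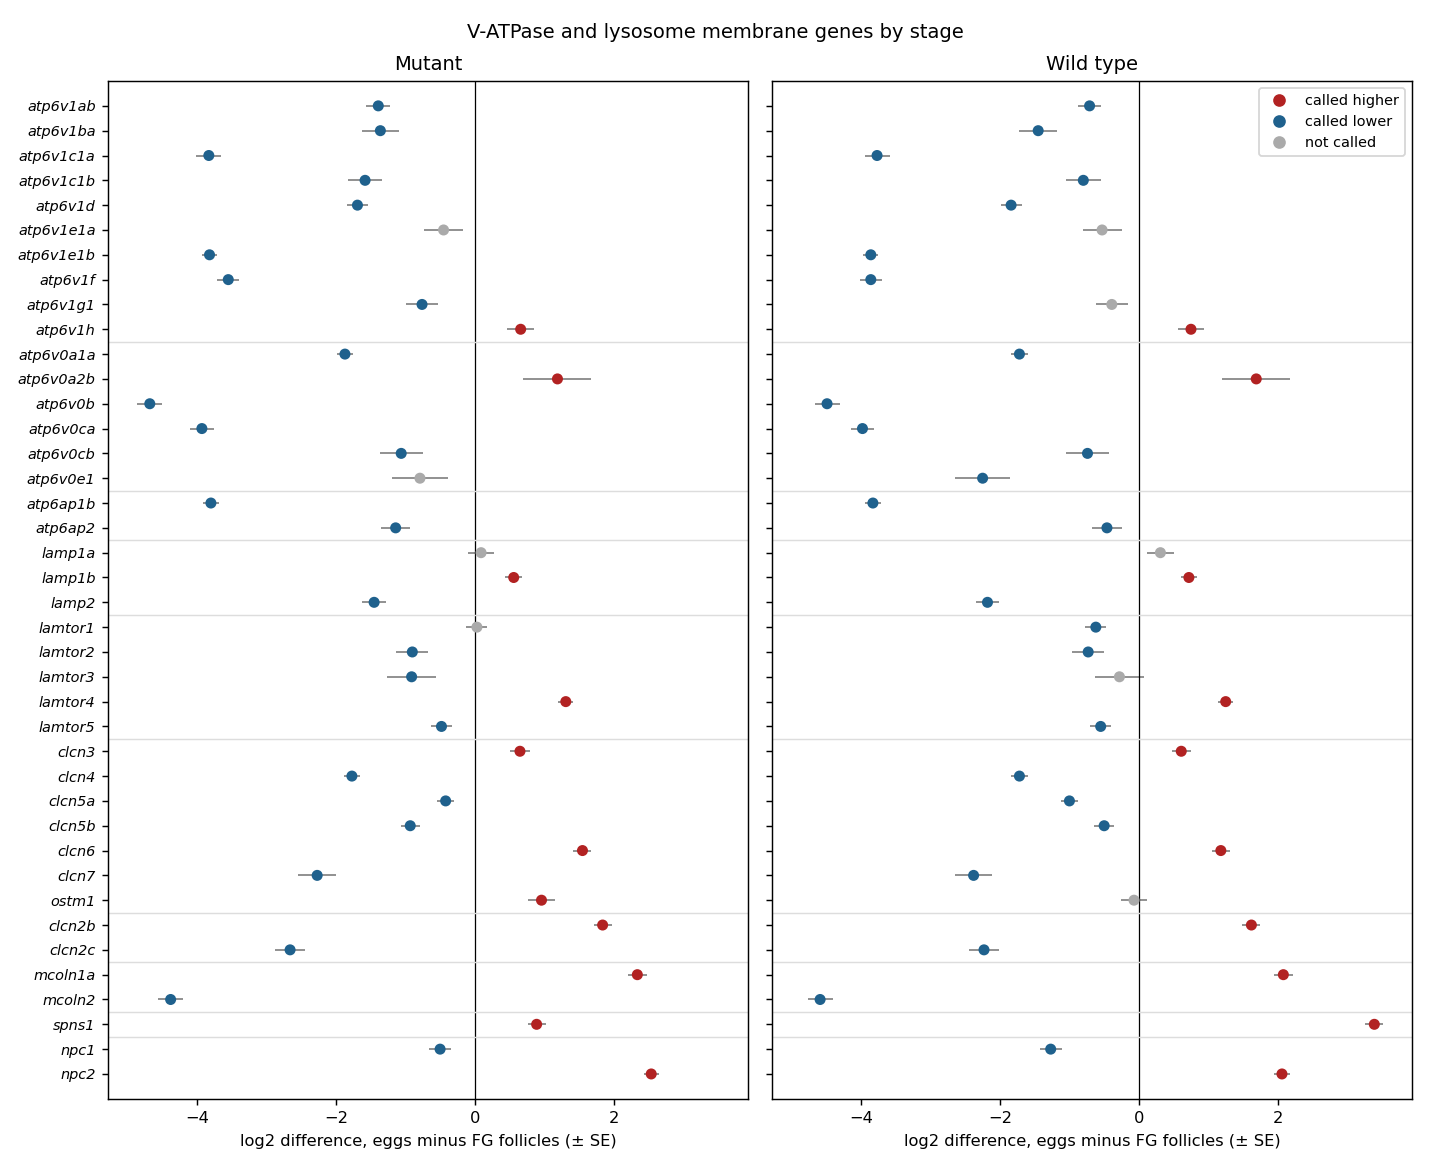
Log2 difference, mature eggs minus FG follicles, of the 40 tested genes in mutants (left) and wild type (right), on the log2(FPKM + 1) scale, with bars of 1 standard error and colours for the call at an adjusted p under 0.05. Most pump genes lie to the left, with atp6v0b at -4.68 and -4.49, as does mcoln2 at -4.38 and -4.59, and npc2, mcoln1a, clcn2b, clcn6 and lamtor4 lie to the right in both genotypes.

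Where several genes encode 1 subunit or family, their shares of the family's summed FPKM were taken per library. How reads shared by similar copies were assigned is not given in the sources used here, so these shares are a description. Of the 4 subunit a genes taken by symbol, atp6v0a2b held 82.7 ± 6.44% in mutant eggs against 83.7 ± 10.7% in wild-type eggs, and 32.1 ± 5.58% in mutant FG follicles and 31.1 ± 16.7% in wild-type FG follicles (SD). The subunit a genes tcirg1a and tcirg1b lie outside the choice by symbol and are not in these shares or in the pump sums. Of the subunit E genes, atp6v1e1a held 84.0 ± 3.08% in mutant eggs against 64.3 ± 16.2% in wild-type eggs, and 19.4 ± 5.33% in mutant FG follicles and 11.6 ± 4.23% in wild-type FG follicles. In wild-type egg libraries the share of atp6v1e1a ranged from 46.2 to 83.2%, so it was not the larger copy in every one. Of the mucolipin genes, mcoln1a held 88.7 ± 2.41% in mutant eggs against 91.3 ± 3.47% in wild-type eggs, and 2.80 ± 0.321% in mutant FG follicles and 3.87 ± 0.828% in wild-type FG follicles. Of lamp1a, lamp1b and lamp2 together, lamp2 held 73.9 ± 3.06% in mutant eggs against 59.9 ± 9.83% in wild-type eggs, and 91.8 ± 0.880% in mutant FG follicles and 91.8 ± 0.572% in wild-type FG follicles. Within the Ragulator, lamtor4 held 68.9 ± 1.56% in mutant eggs against 69.5 ± 2.83% in wild-type eggs, and 37.8 ± 3.64% in mutant FG follicles and 39.9 ± 2.82% in wild-type FG follicles.

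Summed over the pump genes taken by symbol (atp6v and atp6ap), the level was 78.1 to 101 FPKM in mutant eggs and 75.5 to 126 FPKM in wild-type eggs, and 392 to 428 FPKM in mutant FG follicles and 410 to 463 FPKM in wild-type FG follicles. The sums of the genotypes overlapped at each stage, and those of the stages did not. The pump needs all of its subunits, but their transcripts were far from equal, and the copy numbers per complex differ as well. Subunit A, with the genes atp6v1aa and atp6v1ab, summed to 0.122 FPKM in mutant eggs and 0.0536 FPKM in wild-type eggs on average, and to 1.93 FPKM in mutant FG follicles and 0.801 FPKM in wild-type FG follicles. The only gene for subunit d matched by symbol, atp6v0d1, averaged 0.00676 FPKM in mutant eggs, 0.0205 FPKM in wild-type eggs, 0.173 FPKM in mutant FG follicles and 0.253 FPKM in wild-type FG follicles. By contrast subunit c, from atp6v0ca and atp6v0cb, averaged 7.17 FPKM in mutant eggs, 6.60 FPKM in wild-type eggs, 114 FPKM in mutant FG follicles and 107 FPKM in wild-type FG follicles. FPKM rests on the gene model of each gene, so low values of a subunit are given as listed.

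**Figure D5:**
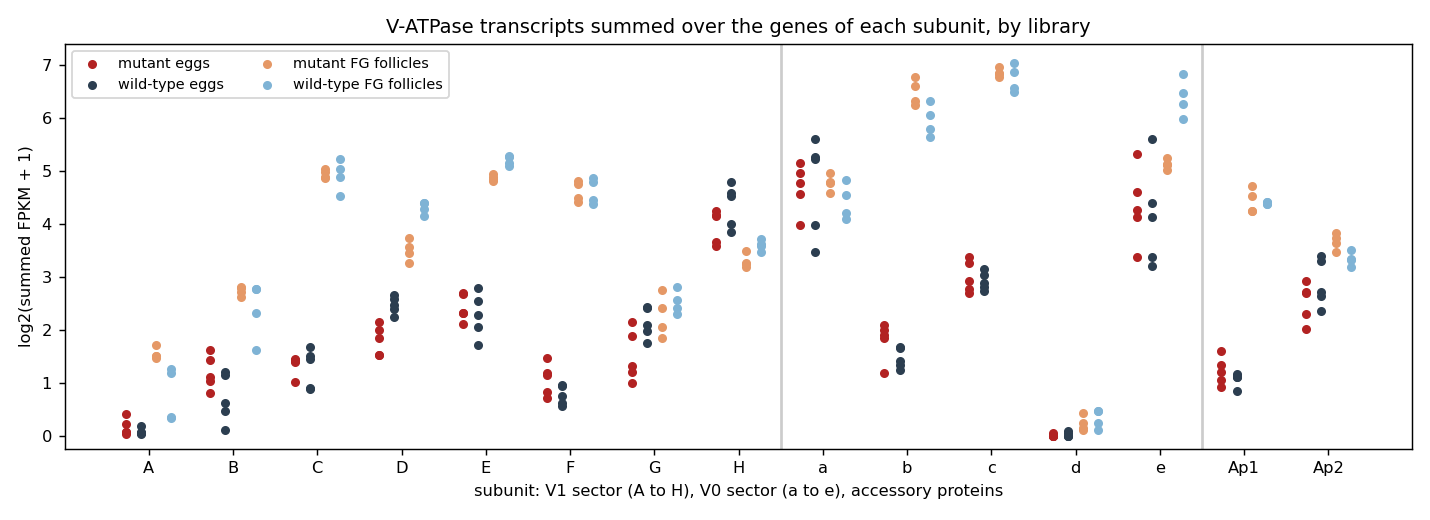
log2(summed FPKM + 1) of the genes, taken by symbol, of each V-ATPase subunit, with 1 point per library, for mutant and wild-type eggs (n = 5 each) and mutant and wild-type FG follicles (n = 4 each). Subunits b and c of the V0 sector lie far higher in FG follicles than in eggs, subunit H lies higher in eggs, and subunits A and d lie near the bottom in all groups.

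Other lists of lysosomal genes were read in the same fits to set the members beside their pathway. Of 12 tested genes for assembly and regulation of the pump, 1 was called in mutant eggs (tmem9b, at 2.93 ± 0.507 FPKM in mutants against 1.57 ± 0.195 FPKM in wild type, log2 difference 0.61, with 8.33% called against 15.1% of all tested genes) and none in mutant FG follicles, where 2 passed an unadjusted p under 0.05 (limma). In both genotypes 11 of these 12 (91.7%) were called lower in eggs than in FG follicles, where 58.3% of all tested genes were lower in mutants and 60.8% in wild type. Among the 11 were tcirg1b, rnaseka and rnasekb, whose products are themselves parts of the pump, so the list is not of assembly factors and regulators alone. Of 29 other lysosome membrane genes, 2 rose and 2 fell in mutant eggs (13.8% called, against 15.1% of all tested genes). These were cd164 (log2 difference 0.70) and the two-pore channel gene tpcn3 (0.62), and mfsd12a (-1.14), whose product carries cysteine into lysosome-related organelles, and sidt2 (-1.08). In mutant FG follicles 4 rose and 3 fell (24.1%, against 23.5% of all tested genes), with the cystine exporter gene ctns at 0.962 ± 0.493 FPKM in mutants against 3.68 ± 0.708 FPKM in wild type (log2 difference -1.28, adjusted p = 1.6e-05), and with tpcn3 (0.98), tpcn2 (0.85) and cd164 (0.82) among the rises.

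Of 39 acid hydrolases and their activators, cathepsins left out, 7 rose and 4 fell in mutant eggs (28.2%, against 15.1% of all tested genes), and 4 rose and 5 fell in mutant FG follicles (23.1%, against 23.5%). The acid ceramidase gene asah1a averaged 9.99 ± 4.36 FPKM in mutant eggs and 1.68 ± 0.748 FPKM in wild-type eggs (log2 difference 2, adjusted p = 5.5e-06). In FG follicles asah1a averaged 177 ± 10.4 FPKM in mutants against 36.9 ± 4.55 FPKM in wild type (log2 difference 2.24, adjusted p = 4.58e-06). The aspartylglucosaminidase gene aga, whose product trims glycoproteins, averaged 4.62 ± 1.60 FPKM in mutant eggs and 13.6 ± 2.90 FPKM in wild-type eggs (log2 difference -1.40), and 1.16 ± 0.329 FPKM in mutant FG follicles and 14.2 ± 2.16 FPKM in wild-type FG follicles (log2 difference -2.81, adjusted p = 9.3e-09). The genes asah1a and aga thus moved in opposite directions, each the same way at both stages. Eggs also had rises of ids (1) and pld3 (0.91), and FG follicles had falls of gla (-1.24) and fuca1.2 (-0.96).

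Of 25 tested genes of the Rag GTPases, mTORC1 and TFEB, which act with the pump and the Ragulator in nutrient sensing, 1 rose and 1 fell in mutant eggs (8%, against 15.1% of all tested genes). These were the mTOR complex subunit mlst8 (log2 difference 0.43) and the mTORC1 inhibitor akt1s1 (-0.31). In mutant FG follicles 3 rose and 4 fell (28%, against 23.5% of all tested genes), among them the Rag GTPase gene rragca (-0.88, at 15.7 ± 1.29 FPKM in mutants against 30.3 ± 6.12 FPKM in wild type), the leucine sensor gene sesn2 (-0.69), mlst8 (0.69) and wdr59 (0.56). Of 18 tested genes for tethering and positioning of lysosomes, 2 rose and 1 fell at each stage (16.7%, against 15.1% of all tested genes in eggs and 23.5% in FG follicles). The tethering subunit gene vps16 averaged 1.88 ± 0.501 FPKM in mutant eggs and 0.334 ± 0.401 FPKM in wild-type eggs (1.15), and 6.55 ± 1.73 FPKM in mutant FG follicles and 1.87 ± 2.18 FPKM in wild-type FG follicles (1.75). Eggs also had a rise of arl8ba (0.78) and a fall of arl8a (-0.33), and FG follicles a rise of plekhm2 (0.79) and a fall of kxd1 (-0.76).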

How the data were processed

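Messenger RNA of ovarian material was sequenced after a stranded library preparation from RNA with an integrity number of at least 7, per the labels' protocols. The authors deposited FPKM values. Per the submitters' processing notes, the authors' tools included HISAT2, Trimmomatic, HTSeq and Cufflinks, and GRCz11 was the genome build. Versions, the role of each tool, the annotation, the treatment of shared reads and the use of strand are not given in the sources used here. All 18 library columns were used. Depth is unknown, so precision rests on the spread between fish.

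From these values, the 10547 genes with 4 or more libraries at 1 FPKM or above were taken as log2(FPKM + 1). R 4.3.3 with limma 3.58.1 (lmFit and trended eBayes) and the data.table package, version 1.17.8, fitted them as 4 group means with 14 residual degrees of freedom. From the fit came 5 contrasts. A call is a Benjamini-Hochberg adjusted p under 0.05 over all 10547 genes. The script was tested on simulated data. Log2 differences and standard errors are on this scale and understate changes of low genes.

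The members, the pathway lists and the marker lists were chosen with earlier results of these data known. Every gene called in a genotype comparison or in the difference between stages is named, with the 6 largest changes each way between stages, the 5 highest levels per stage, the 2 closest misses per genotype comparison, and up to 4 called genes of each other list. Of the listed pathway genes, 149 matched a symbol, 10 matched a synonym and 12 had no match. Of the marker genes, 44 matched and 2 did not.

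Mutant and wild-type libraries share replicate numbers. Same-numbered egg libraries deviated from their group means together (correlations across genes of 0.12, 0.11, 0.36, 0.45 and 0.24). For mutant egg libraries 1, 2 and 5, though, a wild-type egg library of another number correlated more (0.18, 0.16 and 0.37). The labels state no pairing, so whether the numbers pair egg libraries is not settled, and fits with the block are an alternative only. Same-numbered FG follicle libraries did not deviate together (-0.07, -0.12, -0.02 and -0.04). Between eggs and FG follicles of the same number, the correlations were 0.19, 0.27, -0.05 and -0.11 in wild type. In mutants they were -0.18, 0.02, -0.03 and -0.14. Whether the stages share females is not settled either. Alternatives tried were another pseudocount, no filter and a stricter one, 3 scalings, a replicate block, single stages and each library left out. Chosen after seeing the data were a block in egg libraries alone and fits on egg libraries 1 to 3 alone and on egg libraries 4 and 5 alone.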

Additional observations from a re-analysis of the deposited data

Results flagged for a closer look

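In 4 of 104 groups tested over 26 named genes, 1 library stood apart from the rest of its group, where chance gives about 1 in 20 groups. For npc1, wild-type FG follicle library 3 stood at 58.2 FPKM, with the others at 46.5 to 47.8 FPKM. For npc2, wild-type FG follicle library 1 stood at 375 FPKM, with the others at 291 to 297 FPKM. For atp6v1ab, mutant FG follicle library 2 stood at 2.27 FPKM with the others at 1.76 to 1.84 FPKM, and wild-type egg library 4 stood at 0.134 FPKM with the others at 0.0181 to 0.0411 FPKM. The test of whether the genotype difference differed between eggs and FG follicles gave a call for spns1 (log2 value -2.50), npc1 (0.78), clcn5a (0.57) and ostm1 (1.03). None of these calls remained with a pseudocount of 0.1.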

How the results depend on the processing

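Over the alternatives, the named genes gave 761 values that kept their direction and their side of the threshold, 108 that lost the call, 15 that gained it and none that reversed. In eggs the count of 9 called genes became 3 with libraries 1 to 3 alone and 1 with libraries 4 and 5 alone, which hold fewer samples. For the difference between stages, 4 genes became 0 with a pseudocount of 0.1 (limma), and 1 with the filter at 5 FPKM, with median-of-ratios scaling and with TPM; beyond the loss of genes under the stricter filter, the cause was not tested. Leaving out 1 library gave 7 to 11 calls in eggs, 7 to 10 in FG follicles, 1 to 6 for the difference, 34 to 37 for eggs against FG follicles in mutants and 33 to 35 in wild type. With the replicate block over all groups the counts were 10 in eggs, 9 in FG follicles, 4 for the difference, 36 between stages in mutants and 34 in wild type, and with the block in egg libraries alone 11. The block changed the egg calls of npc1, clcn5a, atp6v1h and lamtor3 as given above, each in egg libraries alone and npc1 also over all groups. Over all groups it also ended the call of atp6v0a1a in FG follicles (limma, adjusted p = 0.0711) and of atp6v0cb between wild-type stages (0.0599). It gave a call of clcn2c in FG follicles (0.0145), where same-numbered libraries did not deviate together. The absence of counts limits what can be said of genes near 0 FPKM.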
